A study of Mus musculus with 40 samples.

Results

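Lipid droplet coat and droplet assembly genes of mouse brown adipose tissue (BAT) were followed across 40 poly(A) RNA-seq libraries. The 9 genes were taken by symbol from the count table: the perilipins Plin1, Plin2, Plin3, Plin4 and Plin5, the CIDE genes Cidea and Cidec, and the droplet assembly genes Bscl2 and Fitm2. They are 9 of 20295 listed genes, and all 9 passed the filter on low counts that left 13277 genes to test. The mice were males kept at thermoneutrality (29 °C), where the sympathetic drive to BAT is low, and each of 8 groups held 5 libraries. In the C-3BO line, a Gpr3 transgene behind a loxP-flanked stop (Gpr3 TTG) was opened by a Cre under the Ucp1 promoter, so that the receptor was overexpressed in brown and beige adipocytes; GPR3 is a receptor that signals through Gs without needing a ligand. Controls, labelled WT in their sample titles, were by the methods littermates that carried either the transgene without Cre or Cre without the transgene. C-3BO and control mice were on chow or had 7 days of a high fat diet (HFD, 60% of energy from fat), and were 13 to 19 weeks old in the HFD challenge; the age of the chow mice is not given in the sources used here. The other 4 groups were mice that the methods list as wild type, namely control littermates of an inducible line, 15 weeks old. They received the β3-adrenergic agonist CL-316,243 (CL, 1 mg/kg) or saline once a day over 9 days, either on chow or with 7 days of HFD, the injections having begun 2 days before the diet change. The methods place tissue collection on the day after the last CL injection. The groups are called chow control, chow C-3BO, HFD control, HFD C-3BO, chow saline, chow CL, HFD saline and HFD CL. The samples are whole BAT, so that fewer cells of a type and less RNA per cell cannot be told apart.

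A lipid droplet is a core of triglyceride under a single layer of phospholipid, and the proteins on that layer decide how much of the core is reached by lipases. Perilipin 1 is the adipocyte coat protein that holds back lipolysis in the resting state and, once phosphorylated by protein kinase A, releases the lipase co-activator ABHD5. Perilipin 2 coats droplets in most tissues, perilipin 3 moves from the cytosol onto newly forming droplets, perilipin 4 is an adipocyte protein associated with small nascent droplets, and perilipin 5 links droplets to mitochondria in tissues that burn fat. CIDEA and CIDEC sit at droplet contacts and drive lipid transfer from small to large droplets. Seipin (Bscl2) organises the sites at which droplets bud from the endoplasmic reticulum, and FITM2 acts in the same membrane during budding. Brown adipocytes hold many small droplets and oxidise what they release, so all these genes are normally expressed there.

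In the mm9 mouse genome the genes lie at chr7:86866050-86877662 (Plin1), chr4:86302469-86315963 (Plin2), chr17:56418385-56429934 (Plin3), chr17:56240014-56249225 (Plin4), chr17:56251024-56256971 (Plin5), chr6:113374628-113385754 (Cidec), chr19:8911957-8923173 (Bscl2) and chr2:163294439-163298365 (Fitm2). Bscl2 is on the plus strand and the others named here are on the minus strand. Plin4 and Plin5 are neighbours on the same strand with 1798 bases between them. In values below they went in opposite directions in HFD C-3BO against HFD control mice. In control mice both were higher on HFD than on chow. Counts were made over exons. Bscl2 overlaps the antisense gene Gng3 over 1780 bases, and the strand setting of the counting is not given in the sources used here; Gng3 was counted at 0.783 CPM (counts scaled to the library's TMM-adjusted total) on average against 191 CPM for Bscl2. Plin4 overlaps its antisense neighbour Hdgfrp2 over 6 bases.

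The 250 bases upstream of Plin2, Plin4 and Plin5 are shown because these genes carry the contrasts described below: Plin2 was higher under both treatments on both diets, while the adjacent Plin4 and Plin5 went in opposite directions in HFD C-3BO mice. They are read 5′ to 3′ on the minus strand of mm9, and capitals mark AGGTCA, the half-site of several nuclear receptors, or its reverse complement TGACCT.
Plin2, chr4:86315964-86316213: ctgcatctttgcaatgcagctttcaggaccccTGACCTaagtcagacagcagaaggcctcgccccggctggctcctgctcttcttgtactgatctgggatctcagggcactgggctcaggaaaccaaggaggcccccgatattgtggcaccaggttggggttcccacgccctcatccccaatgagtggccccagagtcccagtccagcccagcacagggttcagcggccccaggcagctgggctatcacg
Plin4, chr17:56249226-56249475: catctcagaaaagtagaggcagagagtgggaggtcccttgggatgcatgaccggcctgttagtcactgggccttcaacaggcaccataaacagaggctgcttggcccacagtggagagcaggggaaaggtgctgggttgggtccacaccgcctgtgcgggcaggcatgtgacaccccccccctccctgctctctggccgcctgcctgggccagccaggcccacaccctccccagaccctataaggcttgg
Plin5, chr17:56256972-56257221: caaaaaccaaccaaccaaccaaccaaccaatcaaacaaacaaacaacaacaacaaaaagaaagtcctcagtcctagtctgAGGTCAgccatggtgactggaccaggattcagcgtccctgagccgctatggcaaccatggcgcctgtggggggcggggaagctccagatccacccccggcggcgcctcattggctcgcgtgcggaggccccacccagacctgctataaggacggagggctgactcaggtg

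Both strands were searched in the same window of all 20295 listed genes. AGGTCA was found upstream of Plin2 and Plin5, that is in 2 of the 9 genes, and in 12.04% of all windows. The repeat of AGGTCA with 1 base between its copies was in none of the 9 and in 0.054% of all windows. TGACG, the half-site of the cAMP response element, was in none of the 9 and in 21.2% of all windows, and the full TGACGTCA was in none of the 9 and in 2.14%. TCAAGGTCA, which contains AGGTCA, was likewise in none of the 9 and in 0.305%. These matches describe the letters in the windows and nothing about binding.

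Library totals ran from 849126 to 15260516 counts (median 9050167), and the lowest count of any of the 9 genes in any library was 91. Gpr3 averaged 376 CPM in chow C-3BO and 793 CPM in HFD C-3BO libraries and was at most 1.18 CPM in the other groups, apart from a single chow CL library at 9.15 CPM. The 10 brown adipocyte markers were present in every group and summed to 11946 to 32407 CPM, with Ucp1 between 1116 and 15808 CPM. Totals were lowest in 12 libraries, namely every HFD saline and HFD CL library and replicates 4 and 5 of HFD C-3BO. The same 12 held 62.2 to 294 CPM of the liver gene Alb, against at most 1.62 CPM in the other 28. They were also the only libraries with counts of the epididymis gene Lcn8. The sum of 15 liver markers did not follow this split, at 805 to 1958 CPM in chow saline and 545 to 809 CPM in HFD CL libraries. It was lower in C-3BO than in control, at 299 to 674 against 757 to 962 CPM on chow. On HFD it was 250 to 826 CPM in C-3BO against 829 to 1436 CPM in control. It was 489 to 1609 CPM in chow CL, overlapping chow saline, and 1470 to 2015 CPM in HFD saline, above HFD CL. The part of the liver markers in the results below was not tested. In the injected mice the difference in depth, Alb and Lcn8 cannot be told apart from the diet, whereas HFD CL and HFD saline libraries all belong to the set of 12. Skeletal muscle markers summed to 730.5 to 9492 CPM in chow control, 370.4 to 3609.7 CPM in chow C-3BO and 5.25 to 204 CPM in HFD control libraries. In chow CL mice, replicate 5 stood apart: its Ucp1 level was 1645 CPM, within the chow saline range of 1268 to 1866 CPM and below the 5946 to 8991 CPM of the other 4, while its Elovl3 level of 102 CPM was far above the chow saline maximum of 8.08 CPM.

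**Figure D1:**
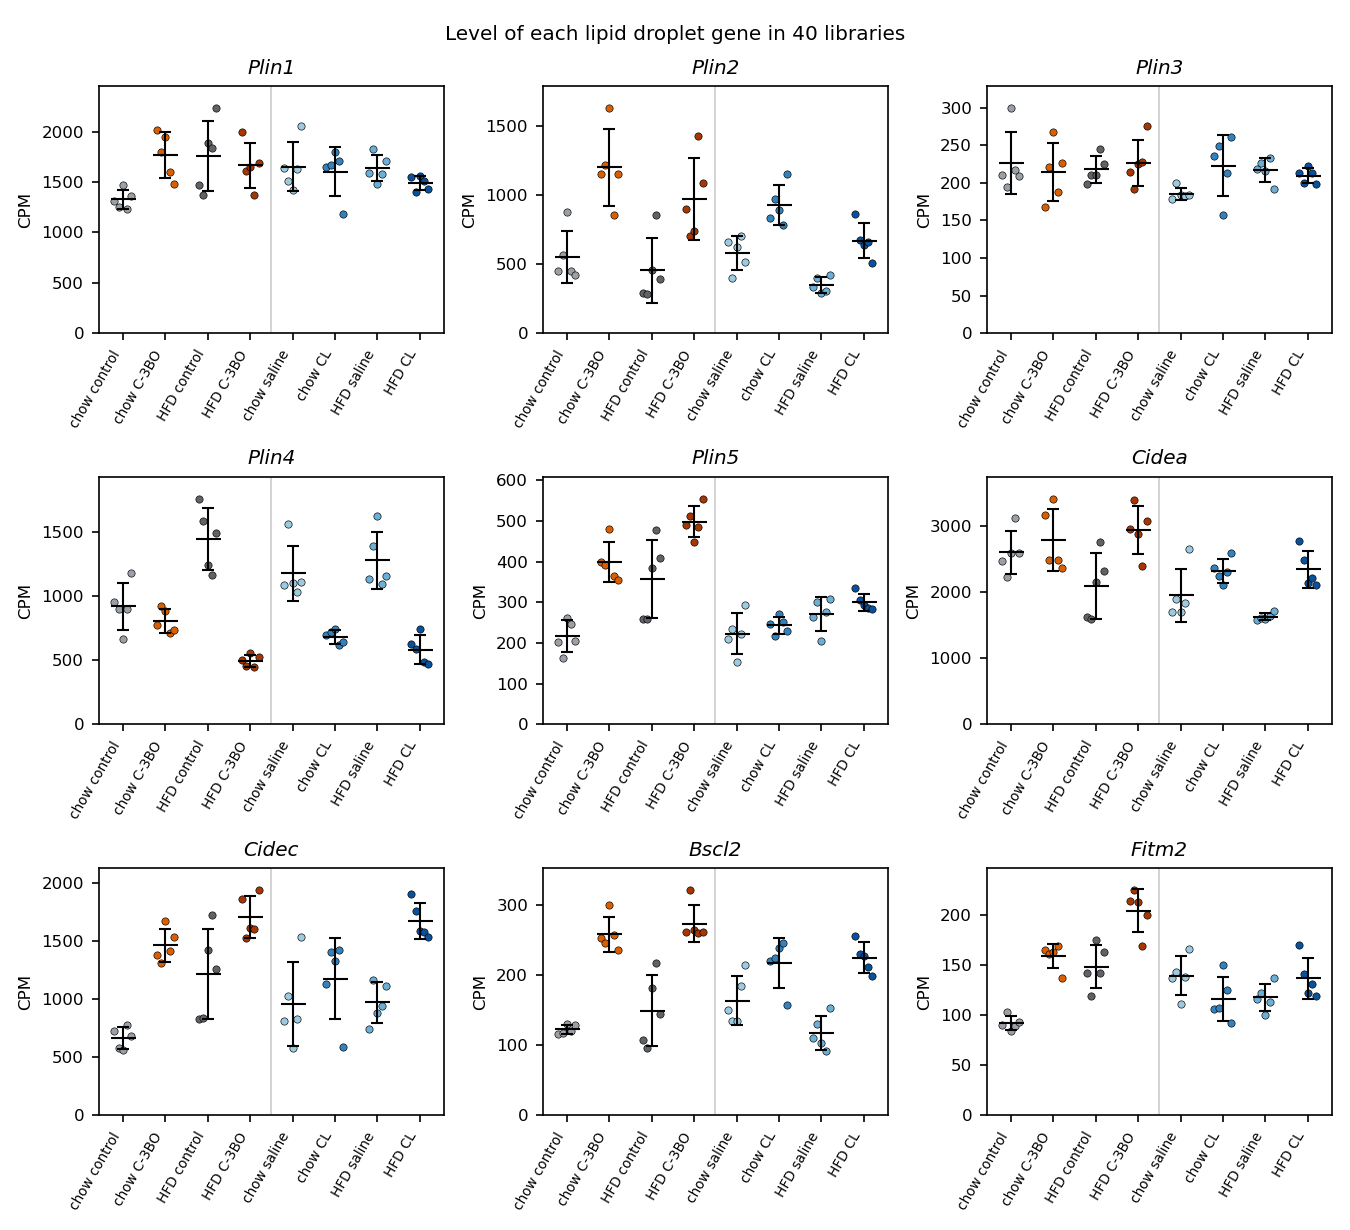
Level of each of the 9 genes in CPM (linear axis from 0) in every library of the 8 groups; points are libraries, the wide bar is the mean and the whiskers are 1 SD (n = 5), and the grey line separates the C-3BO cohort from the injected cohort. Plin4 is lowest in HFD C-3BO at 446 to 558 CPM and highest in HFD control at 1161 to 1752 CPM.

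Per kilobase of exon, the only scale on which levels of different genes are compared here, Cidea led the set. Its mean over all libraries was 2002 CPM per kb, which placed it 16th among all listed genes. Plin1 followed at 867 CPM per kb and Cidec at 714 CPM per kb, then Plin2 at 378 CPM per kb. Plin5 and Plin4 had nearly equal means of 162 and 161 CPM per kb, and Bscl2 (122), Plin3 (99.6) and Fitm2 (89.2 CPM per kb) were lowest. The genes also differed in how far they moved between groups. The highest group mean was 3.43 times the lowest for Plin2 (chow C-3BO against HFD saline), 2.91 times for Plin4 (HFD control against HFD C-3BO) and 2.56 times for Cidec (HFD C-3BO against chow control), but 1.33 times for Plin1 and 1.22 times for Plin3. HFD C-3BO had the highest mean for Plin3, Plin5, Cidea, Cidec, Bscl2 and Fitm2. With the 8 groups of each gene put in order of their means, 62 of the 63 pairs of neighbours had overlapping ranges. The exception was Fitm2 between chow C-3BO and HFD C-3BO. Neighbours in such an order have the closest means, and the share over all tested genes is not given here. The count therefore does not describe the treatment comparisons below, several of which were without overlap.

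GPR3 overexpression on chow was compared first, since the line was built to test whether a constitutively active Gs receptor engages BAT without a ligand. The ubiquitous droplet coat gene Plin2 was 2.17-fold, the droplet fusion gene Cidec 2.20-fold and the seipin gene Bscl2 2.10-fold higher, and Plin5 and Fitm2 were 1.84-fold and 1.73-fold higher. Plin1 rose modestly. Plin3, Plin4 and Cidea did not pass the test. In all, 6 of the 9 genes were higher and 0 lower at an edgeR adjusted p under 0.05, whereas 15.8% of all tested genes were higher and 15.9% lower; 3 of the 9 also passed a log2 fold change of 1, as did 7.19% of all genes. The median log2 fold change of the 9 was 0.79 against -0.03 over all tested genes. With library totals alone as the scaling, 5 were higher and 1 lower, since Plin1 no longer passed and Plin4 did (-0.40, edgeR adjusted p = 0.0320). The shares of all genes above are from the TMM scaling, and those with library totals alone are not given here.

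Plin2 measured 452, 568, 877, 453 and 420.2 CPM in the chow control libraries and 1152, 1217, 1626, 852 and 1154 CPM in chow C-3BO. The ranges overlapped only through control replicate 3 and C-3BO replicate 4. The log2 fold change was 1.11 ± 0.23 (SE, edgeR adjusted p = 3.62e-04). Bscl2 measured 116, 117, 130.2, 119.6 and 129 CPM in control libraries and 253, 246, 299, 257 and 235 CPM in C-3BO. Every C-3BO library was thus above every control, with a log2 fold change of 1.07 ± 0.16 (edgeR adjusted p = 2.15e-06). Cidec went from 726, 582, 562, 774 and 687 CPM to 1381, 1307, 1672, 1418 and 1535 CPM. These ranges did not overlap either, and the log2 fold change was 1.13 ± 0.20 (edgeR adjusted p = 4.71e-05).

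Plin5, the mitochondria-linked perilipin, measured 203, 164, 263, 247 and 205 CPM in chow control and 400.3, 391, 480.3, 366 and 355 CPM in chow C-3BO. The groups were apart, with a log2 fold change of 0.88 ± 0.15 (edgeR adjusted p = 1.63e-05). Fitm2 was also apart, at 84.0 to 103 CPM in control and 137 to 168 CPM in C-3BO libraries, a log2 fold change of 0.79 ± 0.12 (edgeR adjusted p = 2.37e-06). Plin1, the lipolysis gatekeeper, was 1329 ± 96.6 CPM (SD, n = 5) in control and 1769 ± 227 CPM in C-3BO mice. Its log2 fold change of 0.41 ± 0.12 (edgeR adjusted p = 7.34e-03) was 0.21 (adjusted p = 0.132) when libraries were scaled by their totals alone, which moved the median of all genes to -0.23. Cidea, at 2599 ± 321 and 2779 ± 468 CPM, had a log2 fold change of 0.10 (95% interval -0.17 to 0.37). Plin4 had -0.19 (-0.47 to 0.08) and Plin3 -0.08 (-0.31 to 0.16). Muscle markers were higher in the chow control libraries than in the chow C-3BO libraries, as given above, and their part in these differences was not tested.

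On HFD, Plin4 was the gene of the 9 that was called lower in C-3BO mice. Plin4 was 2.91 times as high in HFD control as in HFD C-3BO mice, while Plin2, Plin5, Cidea, Bscl2 and Fitm2 were higher in HFD C-3BO. The count was 5 higher and 1 lower of 9, beside 19.3% higher and 15.5% lower among all tested genes; 2 of the 9 passed the stricter rule, as did 7.43% of all genes. The median log2 fold change of the 9 was 0.48 against -0.02 over all genes.

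Plin4 measured 1752, 1586, 1243, 1161 and 1487 CPM in HFD control libraries and 501, 454, 558, 446 and 523 CPM in HFD C-3BO. The groups were far apart, with no control library near the C-3BO range, and the log2 fold change was -1.54 ± 0.14 (edgeR adjusted p = 9.59e-11). Without both low-depth HFD C-3BO libraries (replicates 4 and 5) it was -1.52 (adjusted p = 3.76e-08). White adipocyte markers moved in the same direction: the 6 listed genes summed to 266 to 1184 CPM in HFD control and 54.8 to 320 CPM in HFD C-3BO libraries. Lep and Nnat made up most of that sum, Tcf21 was at 0 in both groups and Hoxc9 was at or near 0. The part of these markers in the Plin4 difference was not tested.

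Plin2 in the same comparison measured 289, 284, 455, 858 and 395 CPM in HFD control and 902, 702, 738, 1426 and 1089 CPM in HFD C-3BO libraries. Control replicate 4 alone reached into the C-3BO range, and the log2 fold change was 1.09 ± 0.23 (edgeR adjusted p = 3.81e-04); without both low-depth libraries, of which replicate 4 held the highest value, it was 0.77 (adjusted p = 0.0219). Bscl2 went from 107, 96.0, 181, 216 and 144 CPM to 261, 320.2, 263, 259.5 and 260.5 CPM, with no overlap. Its log2 fold change was 0.87 ± 0.16 (edgeR adjusted p = 3.17e-05). HFD control replicates 1 and 2 were the lowest of their group for Plin2, Cidea, Cidec and Bscl2, and the group was spread accordingly.

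Cidea, which lies at chr18:67503218-67527448 on the plus strand, was 2088 ± 494 CPM in HFD control against 2938 ± 360.5 CPM with GPR3 overexpression. Its log2 fold change was 0.49 ± 0.13 (edgeR adjusted p = 3.72e-03), and the ranges overlapped. Fitm2 rose by 0.46 ± 0.12 (edgeR adjusted p = 1.75e-03), from 148 ± 21.3 to 204 ± 21.5 CPM. Plin5 rose by 0.48 ± 0.15 (edgeR adjusted p = 9.35e-03), from 358 ± 96.4 to 498 ± 37.9 CPM, and missed the threshold with library totals alone (0.32, adjusted p = 0.0615), without both low-depth libraries (0.44, adjusted p = 0.0541) and without HFD control replicate 1 or 2 (0.37 each). Cidec had an almost equal log2 fold change of 0.49 but a wider interval, 0.08 to 0.90, and did not pass in edgeR (adjusted p = 0.0550); it passed in DESeq2 (adjusted p = 0.0430) and without HFD control replicate 4 (0.65). Plin1 (-0.08, interval -0.32 to 0.16) and Plin3 (0.06, interval -0.18 to 0.29) did not pass.

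**Figure D2:**
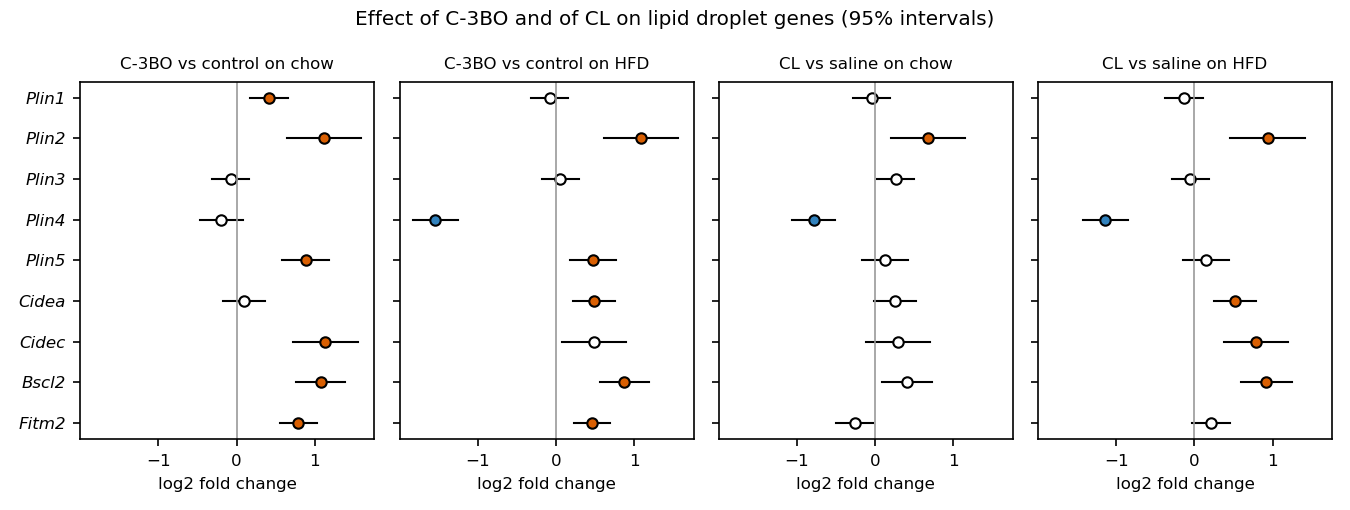
Log2 fold change of each gene in the 4 treatment comparisons with its 95% interval (edgeR); orange points are higher and blue points lower at an adjusted p under 0.05, open points did not pass. Plin4 lies at -1.54 for C-3BO on HFD, and Plin2 is on the higher side in all 4 panels.

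CL was given as the pharmacological route to the same Gs-coupled pathway. On chow, its calls among the 9 genes were Plin2, higher, and Plin4, lower, so 1 gene rose and 1 fell, beside 9.16% and 6.13% of all tested genes. None of the 9 passed the stricter rule, which 2.58% of all genes did, and the median log2 fold change was 0.25 against -0.01 over all genes. With library totals alone as the scaling, 0 genes were higher and 2 lower, namely Plin4 and Fitm2 (-0.40, edgeR adjusted p = 0.0116). Plin2 did not pass under that scaling (0.55, edgeR adjusted p = 0.0618), and its shares of all genes are not given here. Plin4 measured 1083, 1559, 1098, 1028 and 1112 CPM with saline and 693, 721, 739.9, 614 and 640.1 CPM with CL. The groups were apart, with a log2 fold change of -0.79 ± 0.14 (edgeR adjusted p = 1.17e-04). Plin2 measured 662, 399, 626, 705 and 517 CPM with saline and 833, 973, 894, 785 and 1151 CPM with CL. These ranges did not overlap either, but the log2 fold change of 0.67 ± 0.23 passed narrowly (edgeR adjusted p = 0.0436) and held in 4 of 17 alternatives, whose adjusted p ran from 0.0203 to 0.146.

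Chow CL replicate 5, the library with low Ucp1, was also the lowest CL library for Cidec (587 CPM against 1126 to 1427 CPM), Bscl2 (157 against 219 to 245 CPM), Plin1 and Fitm2, and the highest for Plin2 and Cidea. Without it, Plin4 had a log2 fold change of -0.76 (edgeR adjusted p = 3.67e-04), Plin2 0.58 (0.0955) and Bscl2 0.50 (0.0223). With it, Bscl2 did not pass (0.41, interval 0.09 to 0.72, edgeR adjusted p = 0.0683). Bscl2 (0.53) and Cidea (0.39) also passed without chow saline replicate 5, and Plin3 (0.37) and Fitm2 (-0.37) without chow CL replicate 3. The remaining genes, Plin1 (-0.28 to 0.20), Plin3 (0.03 to 0.50), Plin5 (-0.17 to 0.42), Cidea (-0.02 to 0.52), Cidec (-0.11 to 0.70) and Fitm2 (-0.49 to -0.03), did not pass with the 95% intervals given.

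With CL on HFD, 4 genes were higher (Plin2, Cidea, Cidec and Bscl2) and Plin4 was lower, beside 12.7% and 10.8% of all tested genes; 1 of the 9 passed the stricter rule, as did 4.11% of all genes. The median log2 fold change was 0.21 against -0.01 over all genes. All 10 libraries of this comparison were in the low-depth set with Alb, and macrophage markers summed to 262 to 653 CPM with saline and 109 to 342 CPM with CL, a difference whose part in these results was not tested.

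Plin4 measured 1129.6, 1388, 1621, 1095 and 1153 CPM with saline and 622, 584, 745, 485 and 473 CPM with CL on HFD. No CL library reached a saline library, and the log2 fold change was -1.14 ± 0.14 (edgeR adjusted p = 1.61e-07). The white adipocyte markers summed to 348.5 to 1070.0 CPM with saline and 132 to 449 CPM with CL, and their part in the Plin4 difference was not tested. Plin2 measured 333, 402, 292, 303 and 418 CPM with saline and 865, 674, 638, 663 and 512 CPM with CL, again apart, and rose by 0.94 ± 0.24 (edgeR adjusted p = 3.35e-03). The seipin gene Bscl2 went from 109.6, 130.3, 103, 91.3 and 152 CPM to 256, 230.3, 227, 212 and 198 CPM. It rose by 0.92 ± 0.16 (edgeR adjusted p = 4.17e-05).

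Both CIDE genes were apart in this comparison. Cidec went from 745, 1169, 881, 945 and 1116 CPM with saline to 1904, 1756, 1586, 1576 and 1538 CPM with CL (log2 fold change 0.78 ± 0.20, edgeR adjusted p = 4.16e-03), and Cidea from 1627 ± 50.5 to 2341 ± 285 CPM (0.53 ± 0.13, edgeR adjusted p = 3.59e-03). Plin1 (-0.37 to 0.11), Plin3 (-0.29 to 0.19), Plin5 (-0.15 to 0.45) and Fitm2 (-0.03 to 0.45) did not pass, with the 95% intervals of the log2 fold change in brackets.

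Whether diet changed the response was tested as a difference of differences. For C-3BO, Plin4 was the 1 gene of 9 that passed, beside 2.08% of all tested genes: its C-3BO effect was lower on HFD than on chow by 1.35 on the log2 scale (difference -1.35 ± 0.20, edgeR adjusted p = 7.29e-05), and -1.33 without both low-depth libraries (adjusted p = 9.87e-04). All 28 alternatives kept this call. For Plin2 the C-3BO effects on the 2 diets were 1.11 and 1.09, and the interval of their difference, -0.69 to 0.64, was wide. For CL, 0 of the 9 passed (lowest edgeR adjusted p = 0.348), beside 0.0151% of all genes, and DESeq2 also called 0. At an unadjusted edgeR p under 0.05 there were 2 of the 9, and the share of all genes at that threshold is not given here. The Plin4 difference for CL was -0.35 (-0.74 to 0.05).

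C-3BO and CL effects were also set against each other on each diet, each measured against its own controls. By the methods, CL tissue was taken the day after the last injection, whereas overexpression in C-3BO mice began early in life. The part of this timing in the differences was not tested. On chow, the C-3BO effect exceeded the CL effect for Fitm2 by 1.05 ± 0.16 (edgeR adjusted p = 8.68e-05) and for Plin5 by 0.76 ± 0.21 (edgeR adjusted p = 0.0218), which made 2 of 9 genes beside 6.24% of all tested genes. Fitm2 was higher in C-3BO (0.79) and had a log2 fold change of -0.26 with CL, and Plin5 was 0.88 against 0.13. The control groups themselves were apart for Fitm2, at 84.0 to 103 CPM in chow control and 111 to 166 CPM in chow saline. Fitm2 averaged 159 CPM in chow C-3BO and 116 CPM in chow CL. The part of the control groups in the Fitm2 difference was not tested. The Plin5 call was kept in 26 of 27 alternatives and lost without chow saline replicate 5 (0.64). DESeq2 called 5 of the 9, adding Plin4 (0.59), Cidec (0.84) and Bscl2 (0.67). The 6.24% is the edgeR share, and the share of all genes called by DESeq2 is not given here. On HFD, 1 gene had an unadjusted edgeR p under 0.05, and the share of all genes at that threshold is not given here. After adjustment 0 of the 9 passed on HFD (lowest edgeR adjusted p = 0.350), beside 1.80% of all genes, and DESeq2 also called 0. The intervals there still allowed sizeable differences, for example -0.80 to -0.01 for Plin4 and -0.51 to 0.82 for Plin2.

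Diet alone was compared within each of the 4 mouse groups. These comparisons share libraries with the treatment comparisons, so their values stand side by side and are not separate evidence. In control mice 5 genes were higher on HFD and 0 lower, beside 15.4% and 17.5% of all tested genes. Cidec rose by 0.87 ± 0.20 (edgeR adjusted p = 9.48e-04), from 562 to 774 CPM on chow to 828 to 1722 CPM on HFD. Plin5 rose by 0.72 ± 0.15 (edgeR adjusted p = 1.73e-04), Fitm2 by 0.69 ± 0.12 (1.46e-05), Plin4 by 0.65 ± 0.14 (3.22e-04) and Plin1 by 0.40 ± 0.12 (7.69e-03). Cidec and Fitm2 were the genes of these 5 without overlap between the diets. The Plin1 call was lost without HFD control replicate 5 (0.30). In saline mice these 5 genes did not pass between the diets. Their log2 fold changes there were 0.02 for Cidec, 0.28 for Plin5, -0.24 for Fitm2, 0.12 for Plin4 and -0.01 for Plin1. Muscle markers were lower in the HFD than in the chow libraries, as given above, while white adipocyte markers summed to 163 to 379 CPM on chow and 266 to 1184 CPM on HFD. The part of either list was not tested.

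In C-3BO mice 2 of the 9 genes passed between the diets: Fitm2 was 0.36 ± 0.12 higher on HFD (edgeR adjusted p = 0.0189) and Plin4 was lower by 0.69 (log2 fold change -0.69 ± 0.14, edgeR adjusted p = 2.90e-04), beside 13.5% of all genes higher and 12.2% lower. The Fitm2 call was lost without chow C-3BO replicate 5 (0.31) and without HFD C-3BO replicate 2 (0.30) or 3 (0.32). The ranges of both genes were apart, and Plin4 thus stood at 708 to 923 CPM on chow and 446 to 558 CPM on HFD, opposite to its direction in control mice. With saline, 0 genes were higher and 2 lower on HFD (Plin2, -0.73 ± 0.23, edgeR adjusted p = 0.0289; Bscl2, -0.46 ± 0.16, 0.0409), beside 7.45% and 8.04% of all genes. Scaling by library totals alone called neither and put Plin3 (0.40) and Plin5 (0.46) past the threshold as higher, so neither call held under that scaling; over 17 alternatives the Plin2 call held in 10 and the Bscl2 call in 7. With CL, 0 of the 9 passed, beside 10.9% higher and 12.7% lower among all genes, and DESeq2 called Cidec (0.53). At an unadjusted edgeR p under 0.05 there were 3 of the 9, and the share of all genes at that threshold is not given here. All HFD saline and HFD CL libraries are in the low-depth set with Alb, and the chow saline and chow CL libraries are not. In the injected mice diet and that set therefore cannot be told apart.

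The RNA of the perilipins was also expressed as each gene's share of the perilipin sum per kb within a library. These are shares of RNA in whole tissue, and protein on droplets was not measured in these libraries. Plin1 held the largest mean share in every group, from 47.0% in chow C-3BO to 57.6% in HFD saline. Plin2 held 20.9% ± 4.8 (SD, n = 5) in chow control and 31.1% ± 3.6 in chow C-3BO, 13.6% ± 5.3 in HFD control and 27.5% ± 7.1 in HFD C-3BO. The Plin4 share was 15.2% ± 4.8 in HFD control and 4.7% ± 0.6 in HFD C-3BO, and 14.6% ± 2.8 in HFD saline and 6.7% ± 1.0 in HFD CL. Plin5 reached 13.9% ± 1.2 in HFD C-3BO (12.7 to 15.8%), above the 12.3% maximum of HFD control. These shares were described and not tested.

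**Figure D3:**
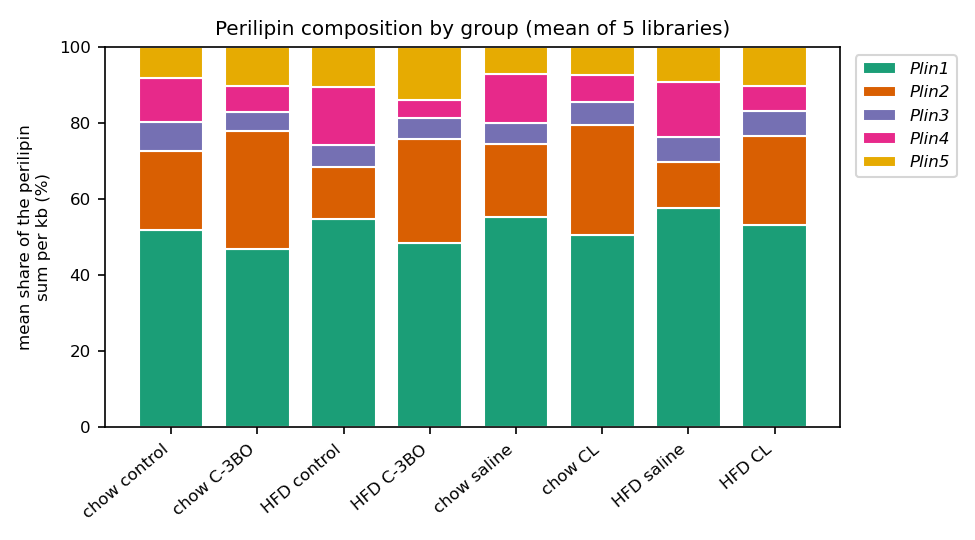
Mean share (%) of each perilipin's RNA in the perilipin sum per kb of exon, by group (mean of 5 libraries, bars stacked to 100%). Plin2 takes 12.1% in HFD saline and 31.1% in chow C-3BO, and Plin4 takes 4.7% in HFD C-3BO.

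Ratios of 2 genes within a library do not depend on its scaling, and 3 of them were tested in 8 comparisons with an exact two-sided permutation test of the log2 ratio, whose smallest p with 5 against 5 libraries is 0.00794; p-values were adjusted over the 24 tests. The ratio of Cidea to Cidec per exon length was 5.77 (geometric mean, range 5.04 to 6.80) in chow control. It was 2.79 (2.27 to 3.38) in chow C-3BO and 2.59 (2.23 to 2.90) in HFD control. The ratio was thus lower with GPR3 overexpression on chow and with HFD in control mice (exact permutation, adjusted p = 0.0272 for each, no overlap). In chow saline it was 3.13 (2.55 to 4.33). On HFD the ratio was 0.80 times that on chow in saline mice and 0.91 times in C-3BO mice, and neither passed (exact permutation, adjusted p = 0.140 and 0.408). In HFD C-3BO it was 2.54 (2.20 to 3.29), which did not differ detectably from HFD control (exact permutation p = 0.802, adjusted 0.836). HFD CL libraries were tightly grouped at 1.99 to 2.16, below chow CL (exact permutation, adjusted p = 0.0272), where replicate 5 stood at 6.53 and the other 4 libraries at 2.34 to 3.10. All HFD saline and HFD CL libraries, and no chow saline or chow CL library, are in the low-depth set with Alb. Diet and that set cannot be told apart in these mice.

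The ratio of Plin5 to Plin1 was higher in C-3BO than in control mice on chow (0.216 against 0.154) and on HFD (0.289 against 0.192, exact permutation, adjusted p = 0.0381 for each), and with CL on HFD (0.193 against 0.158, adjusted p = 0.0272). It was 0.147 against 0.128 with CL on chow (exact permutation, adjusted p = 0.210). The Plin5 to Plin1 ratio was also higher on HFD than on chow in C-3BO mice (exact permutation, adjusted p = 0.0381) and with saline and CL (adjusted p = 0.0440 for each). In control mice its rise with HFD missed the threshold (exact permutation, adjusted p = 0.0896). The ratio of Plin2 to Plin1 was higher in C-3BO mice on chow (0.659 against 0.396, exact permutation, adjusted p = 0.0440) and with CL on chow (0.572 against 0.343) and on HFD (0.437 against 0.209, adjusted p = 0.0272 for each). In HFD C-3BO it was 0.559 against 0.237 in HFD control, and missed the threshold (exact permutation p = 0.0317, adjusted 0.0508). Between the diets, Plin2 to Plin1 was lower on HFD with saline (0.209 against 0.343, exact permutation, adjusted p = 0.0272). It did not pass in control, C-3BO or CL mice (exact permutation, adjusted p = 0.0714, 0.433 and 0.127).

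**Figure D4:**
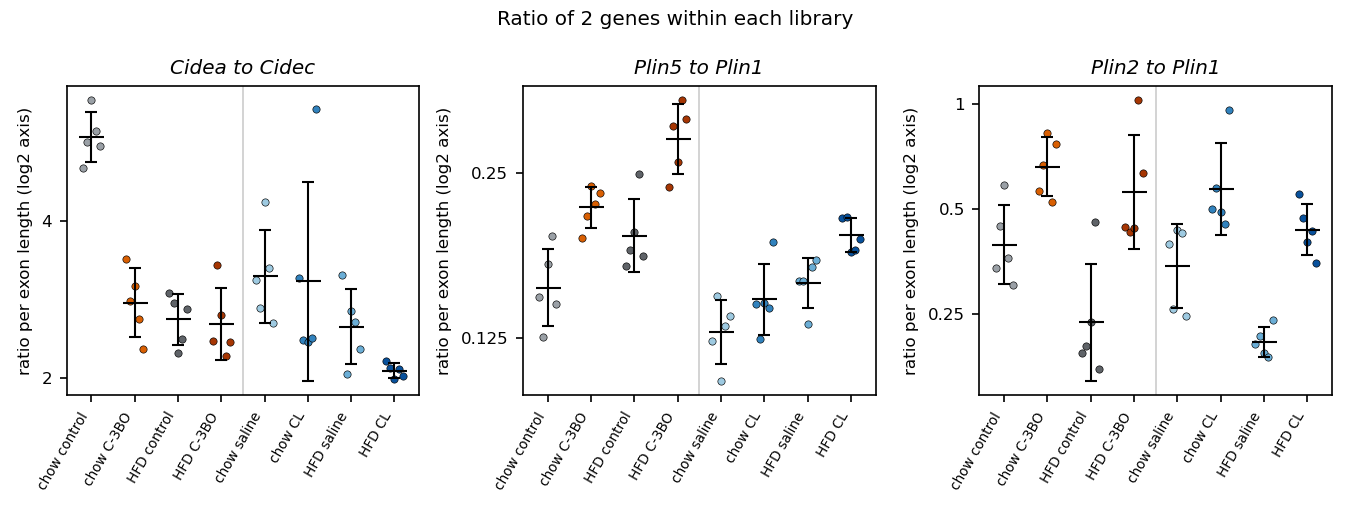
Ratio of Cidea to Cidec, Plin5 to Plin1 and Plin2 to Plin1 per exon length in each library (log2 axis); points are libraries, bars are the mean and SD of the log2 ratio (n = 5). The 5 chow control libraries lie at 5.04 to 6.80 for Cidea to Cidec, above every other library except chow CL replicate 5 at 6.53.

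Across the 40 libraries, which share the groups, depth differences and tissue, log2 CPM values of the 9 genes were compared as a description. Bscl2 went with Plin2 (Pearson r = 0.80; 0.47 with group means removed) and Cidec (0.80; 0.74), and Plin5 with Fitm2 (0.80; 0.50) and Cidec (0.77; 0.68). Plin4 ran against Bscl2 (-0.71), Plin2 (-0.68) and Cidea (-0.60). With group means removed, Plin5 stayed close to Cidea (0.75) and Bscl2 (0.71), whereas Plin4 against Bscl2 shrank to -0.26. Plin3 had an r of 0.26 at most with any other gene of the set before group means were removed, and 0.45 with Plin2 and -0.44 with Fitm2 once they were. The tested gene outside the set with the highest r was Acsl1 for Cidec (0.93; 0.82 within groups), Psmc4 for Plin2 (0.92; 0.88), Ndufv3 for Cidea (0.92; 0.83), Nr1h3 for Plin5 (0.90; 0.75) and Pygb for Plin4 (0.89; 0.57). It was Dolk for Fitm2 (0.88; 0.69), Plekhh3 for Plin1 (0.73; 0.72) and Ntmt1 for Plin3 (0.69; 0.74).

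Other droplet genes were taken from 3 lists, of 6 lipolysis, 9 triglyceride and phospholipid synthesis and 27 assembly and surface genes, and all 42 were tested. In C-3BO mice 22 of the 42 were higher and 7 lower on chow (15.8% and 15.9% of all tested genes), and 20 were higher and 5 lower on HFD (19.3% and 15.5%). With CL 11 were higher and 5 lower on chow (9.16% and 6.13% of all tested genes), and 16 were higher and 2 lower on HFD (12.7% and 10.8%). The counts of lower genes were thus near or below the share of all genes, apart from CL on chow, where they were somewhat above it. Beside the same shares of all genes, the synthesis list had 5 of 9 genes higher and 0 lower in each C-3BO comparison and with CL on HFD, and 3 higher and 0 lower with CL on chow. Its median log2 fold change was 0.64, 0.74, 0.22 and 0.62 for C-3BO on chow and HFD and CL on chow and HFD, beside -0.03, -0.02, -0.01 and -0.01 over all genes.

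Agpat2, which makes phosphatidic acid on the way to triglyceride, led that list. It averaged 924 ± 169.8 CPM in chow control and 3111 ± 570.2 CPM in chow C-3BO, a log2 fold change of 1.75 ± 0.25 (edgeR adjusted p = 1.57e-06). With CL it rose by 1.46 ± 0.25 on chow and by 1.91 ± 0.25 on HFD (edgeR adjusted p = 7.62e-05 and 5.97e-07). Agpat2 averaged 766 ± 493 CPM in HFD control and 2629 ± 315 CPM in HFD C-3BO. Mgll, the monoglyceride lipase, rose by 1.38 ± 0.16 in chow C-3BO (edgeR adjusted p = 2.65e-08), from 752 to 814 CPM in control to 1834 to 2248 CPM in C-3BO libraries. Its mean on HFD was 1314 CPM in control and 2450 CPM in C-3BO. With CL against saline the Mgll means were 1370 against 868 CPM on chow and 2179 against 1104 CPM on HFD. Hilpda, whose product inhibits the triglyceride lipase ATGL, fell in C-3BO mice on both diets (log2 fold change -1.46 ± 0.28 on chow and -1.18 ± 0.27 on HFD, edgeR adjusted p = 1.07e-04 and 7.39e-04), from 14.7 ± 5.14 to 5.42 ± 1.76 CPM on chow.

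The sterol enzyme gene Nsdhl was higher with CL by 0.97 ± 0.20 on chow and 1.17 ± 0.21 on HFD (edgeR adjusted p = 6.13e-04 and 8.65e-05). Spg20 was lower on HFD in C-3BO (-0.56 ± 0.13, edgeR adjusted p = 8.53e-04) and with CL (-0.62 ± 0.14, 8.43e-04). On chow its mean was likewise lower, at 37.4 CPM in C-3BO against 62.3 CPM in control and 43.6 CPM with CL against 58.4 CPM with saline. Tmem159, which encodes a seipin partner, was lower with CL by log2 fold changes of -0.47 ± 0.14 on chow and -0.71 ± 0.16 on HFD (edgeR adjusted p = 0.0207 and 9.86e-04). Its mean was also lower in C-3BO than in control, at 11.6 against 16.2 CPM on chow and 17.4 against 21.4 CPM on HFD. Fitm1, the FITM2 relative of muscle, was lower in chow C-3BO (-2.08 ± 0.70, edgeR adjusted p = 0.0201) and with CL on chow (-3.36 ± 1.05, adjusted p = 0.0249), where the 5 CL libraries held 1 to 3 counts each. Muscle markers summed to 10.4 to 2432 CPM with saline and 11.1 to 133 CPM with CL on chow, and their part in the Fitm1 difference was not tested. Hsd17b13 and Mettl7b were called higher in HFD C-3BO on 22 and 26 counts over the 5 libraries, against 4 and 7 counts in HFD control, too few for a fold change to be read. Replicates 4 and 5 of HFD C-3BO, both low-depth libraries with Alb, held 12 and 6 of these counts for Hsd17b13 and 5 and 17 for Mettl7b, and the part of that difference was not tested.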

How the data were processed

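Poly(A) RNA of 40 whole BAT samples was sequenced by the authors, aligned to mm9 with STAR, and counted over exons with HOMER and iRNA-seq; versions and strand setting are not given in the sources used here. The deposited values are raw counts per gene, whole numbers that were not normalized by the authors. Samples were grouped by their labels, 8 groups of 5; replicates are labelled as separate samples whose counts differed by more than sampling noise in every group, but no label ties each to its own animal, so p-values measure the spread between these samples.

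From these counts, edgeR 4.0.16 (R 4.3.3) was run on all 40 libraries with TMM factors, a mean per group, filterByExpr at a minimum count of 10, quasi-likelihood tests of 8 comparisons and 4 differences between comparisons, and Benjamini-Hochberg adjustment over 13277 genes. A call is an adjusted p under 0.05; the stricter rule adds a log2 fold change beyond 1 or -1. CPM values use the TMM factors. The highest of 3 counts per library corresponds to 3.01 CPM; intervals of the fits cover the spread between libraries. Within-library ratios (0.5 counts added, divided by exon length) were compared by exact permutation over the 252 regroupings of 5 against 5. The test steps were tested on simulated data first.

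The 9 genes, the droplet, brown and white adipocyte, muscle and macrophage lists, and the tests were chosen with earlier results of these data known. All 9 genes are named; of the other droplet genes the 2 highest and 2 lowest calls of each treatment comparison are named, and for each of the 9 the gene with the highest Pearson r of log2 CPM, except for Bscl2, where it is not reported here. Upstream windows were read from the mm9 sequence at the gene starts of the count table. Alternatives were library totals alone, RLE factors, other filters, a replicate block, separate fits, DESeq2 1.42.0, 5 counts added in ratios, and leaving out each library; leaving out both low-depth HFD C-3BO libraries was chosen after seeing the data. Shared replicate numbers did not pair the samples.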

Additional observations from a re-analysis of the deposited data

Results flagged for a closer look

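Among 72 sets of 5 libraries (9 genes in 8 groups), 7 held a library far from the other 4 by Dixon's criterion for 5 values, where chance gives about 3.6. Plin1 was low in chow CL replicate 5 (1181 CPM), the library with low Ucp1. Plin3 was high in chow control replicate 3 (298.9 CPM) and in chow saline replicate 2 (199.6 CPM). Plin4 was high in chow saline replicate 2 (1559 CPM), and Cidea in chow saline replicate 5 (2656 CPM). Bscl2 was high in HFD C-3BO replicate 2 (320.2 CPM), and Fitm2 was low in chow C-3BO replicate 5 (137.4 CPM).

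Effects differed between groups by a test of the difference for 3 genes, with edgeR adjusted p-values given in the report. The C-3BO effect on Plin4 was lower on HFD than on chow (difference -1.347, log2). On chow, the C-3BO effect exceeded the CL effect, each against its own controls, for Plin5 (0.756) and Fitm2 (1.051). For Fitm2 these control groups were themselves apart.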

How the results depend on the processing

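Counts of the 9 genes past the threshold changed by more than 1.5 times in 4 comparisons. The shares of all genes called in each alternative are not given beside these counts. For HFD against chow with CL (0) the count was 3 with library totals alone and with only the libraries of the comparison, and 1 with RLE factors, with at least 10 counts in every library and with DESeq2. For CL on chow (2) it was 1 with RLE factors, with no low-count filter and with DESeq2. For HFD against chow with saline (2) it was 1 with only the libraries of the comparison and 1 with a replicate block, the paired form of the fit, which changed no other count; replicate numbers did not pair the samples (mean r of deviations -0.136 to 0.172). For C-3BO minus CL on chow (2), DESeq2 gave 5.

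The direction of a called gene kept its sign in every alternative that was run. Sign changes were found in genes that had not passed. With library totals alone, log2 fold changes were -0.1094 for Cidea (C-3BO on chow), -0.1113 for Plin3 (C-3BO on HFD), -0.0149 for Plin5 (CL on chow) and -0.0007555 for Plin5 (CL on HFD); without both low-depth HFD C-3BO libraries Plin3 had -0.05216. Leaving out 1 library at a time gave -0.1362 to 0.04456 for Plin3 and C-3BO on chow, -0.1669 to 0.02253 for Plin1 and -0.02444 to 0.1124 for Plin3 with C-3BO on HFD, and -0.1055 to 0.04774 for Plin1 with CL on chow. Single genes were followed in the treatment comparisons and where they had passed.

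Leaving out 1 library gave 1 to 3 calls for CL on chow, 1 to 2 for HFD against chow in C-3BO, 0 to 2 with saline and 0 to 1 with CL, and 1 to 5 for C-3BO minus CL on chow. Several calls of log2 ratios were lost or gained when 1 library was left out. Cidea to Cidec ran from -0.1211 to 0.02373 (C-3BO on HFD), -0.3065 to 0.08467 (CL on chow), -0.3563 to -0.1991 (CL on HFD) and -0.6636 to -0.2937 (HFD with CL). Plin5 to Plin1 ran from 0.2215 to 0.3934 (HFD in control), 0.2243 to 0.3621 (HFD with saline) and 0.33 to 0.4772 (HFD with CL). Plin2 to Plin1 ran from 0.64 to 0.8774 (C-3BO on chow), 1.019 to 1.476 (C-3BO on HFD), 0.549 to 0.821 (CL on chow), -0.9776 to -0.597 (HFD in control) and -0.8329 to -0.631 (HFD with saline). The cause of these changes was not tested.

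Scaling by library totals alone put the median log2 fold change of all genes at -0.23 to -0.15 in the treatment comparisons and at 0.15 to 0.21 in the diet comparisons. The share of calls that were higher then went from 49.8 to 20.2% (C-3BO on chow), 55.3 to 30.1% (C-3BO on HFD), 59.9 to 26.6% (CL on chow), 54.0 to 27.9% (CL on HFD), 46.9 to 71.2% (HFD in control), 52.6 to 81.8% (in C-3BO), 48.1 to 84.8% (with saline), 46.1 to 79.7% (with CL), 64.9 to 79.3% (diet dependence of C-3BO) and 45.4 to 31.7% (C-3BO minus CL on chow). Depth did not leave any of the 9 genes near the floor of 3 counts.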
